A study of Mus musculus with 14 samples.

Results

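Poldip2, the gene of polymerase delta interacting protein 2, was examined together with the genes of 8 proteins reported to bind it: Nox4, Cyba, Pold2, Pcna, Clpx, Acsm1, Primpol and Ceacam1. The members were the rows of the deposited gene table whose gene name equalled one of these symbols, which gave 9 of the 35275 genes in the table. RNA was sequenced from carotid arteries of C57BL/6 mice aged 10 weeks. The lumen was flushed with Qiazol to collect an endothelium-enriched RNA (the flushed fraction), and the remaining media and adventitia gave a second RNA (the left-over fraction). The flushed fraction comprised 4 Poldip2-floxed libraries, whose genotype is given as Littermate Control, and 4 Poldip2-EC-/- libraries, given as Poldip2 EC knockout. The left-over fraction comprised 2 Poldip2-floxed libraries, also given as Littermate Control, and 4 Poldip2-SMC-/- libraries, given as Poldip2 SMC Knockout. The recombinase and the promoter that drives it in either knockout are not given in the sources used here, nor is whether arteries were pooled. The labels number the libraries of a group as repeats without saying that they came from separate mice, so p-values measure only the spread between these libraries.

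Poldip2 was first isolated as a binding partner of the p50 subunit of DNA polymerase delta (Pold2) and of the sliding clamp PCNA. In vascular smooth muscle it associates with NOX4 and p22phox (Cyba), the membrane pair that makes a constitutively active, hydrogen peroxide-producing NADPH oxidase. The protein is also found in mitochondria, where it is linked to the ClpXP protease and to protein lipoylation through the acyl-CoA synthetase ACSM1, and it stimulates the primase-polymerase PrimPol.

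Library depth ran from 15019891 to 23287155 counts. The summed level of 12 endothelial markers was 17503 to 20686 CPM (TMM-scaled CPM, each gene's counts relative to library size) in the flushed libraries and 374 to 1321 CPM in the left-over libraries. For 10 smooth muscle markers it was 352 to 709 CPM in the flushed and 7234 to 9277 CPM in the left-over libraries, and no marker of either list was at 0 in any library. Adventitial fibroblast markers were the most abundant list in the left-over fraction, at 27321 to 39089 CPM, above the smooth muscle list in every library.

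Groups of the left-over fraction are written here as labelled control and labelled knockout, because Poldip2 and the deposited table go against their labels. In the authors' deposited table, the group FPKM named Ctrl_SM was, for 9 of 9 members, the average of the 4 labelled knockout libraries. The column named PD2KO_SM matched the average of the 2 labelled control libraries for 0 of 9. The flushed columns Ctrl_EC and PD2KO_EC each matched the average of the libraries with that label for 9 of 9. Description fields of 3 flushed controls and 3 left-over labelled knockouts carry the same sample numbers, and no number is shared between any other pair of groups. These pairs are flushed control 1 with labelled knockout 4, control 2 with labelled knockout 1, and control 3 with labelled knockout 2. The labels do not say what the numbers mark.

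Stretches of 250 bases before the annotated RefSeq start (assembly GRCm38.p6) are shown on the strand of their gene: that of Poldip2, because it also holds the start of a neighbouring gene, and those of Nox4 and Ceacam1, the members whose RNA differed most between the fractions. Capitals mark the GC box GGGCGG in Poldip2 and Nox4 and the E-box CACGTG in Ceacam1.
Poldip2, chr11:78512046-78512295, + strand: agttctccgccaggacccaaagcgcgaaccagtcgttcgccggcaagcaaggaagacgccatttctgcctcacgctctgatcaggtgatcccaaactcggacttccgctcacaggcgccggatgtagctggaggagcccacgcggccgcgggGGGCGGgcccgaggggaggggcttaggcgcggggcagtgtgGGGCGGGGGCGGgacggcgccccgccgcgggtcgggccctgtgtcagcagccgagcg
Nox4, chr7:87246399-87246648, + strand: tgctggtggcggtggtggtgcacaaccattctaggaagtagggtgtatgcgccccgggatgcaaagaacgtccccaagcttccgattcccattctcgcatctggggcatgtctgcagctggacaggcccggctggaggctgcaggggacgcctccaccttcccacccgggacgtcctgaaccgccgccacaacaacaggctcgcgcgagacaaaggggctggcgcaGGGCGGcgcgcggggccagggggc
Ceacam1, chr7:25477626-25477875, - strand: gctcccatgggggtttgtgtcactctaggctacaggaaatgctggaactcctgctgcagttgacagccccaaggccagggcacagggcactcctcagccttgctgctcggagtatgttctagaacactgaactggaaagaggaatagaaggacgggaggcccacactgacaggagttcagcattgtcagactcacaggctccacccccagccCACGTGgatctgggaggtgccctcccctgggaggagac

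The Poldip2 stretch had a GC content of 71.6% and held 3 GC boxes, which start 98, 57 and 51 bases before the RefSeq start. Tmem199 runs in the opposite direction, and its first base in the gene table falls on base 127 of the stretch, 124 bases before that start. The gene table starts Poldip2 earlier than RefSeq, at base 148 of the stretch. All 3 GC boxes, the first at base 153, therefore lie inside the gene as the gene table places it. The Nox4 stretch also lies inside its gene as placed there, from 87246096. Searched on both strands, GGGCGG or its complement was in the stretches of 7 of the 9 members and in 32.7% of 32851 RefSeq stretches of the same length. CCAAT was in 5 members and 33.8% of all stretches, the TATA box TATAAA in Pold2 and 12.4%, and CACGTG in Ceacam1 and 6.02%. The ETS motif CCGGAAG (6.91% of stretches) and the AP-1 motif TGANTCA (6.75%) were in none of the 9. Pold2 had stretches before different starts on chromosome 11, 5878257-5878506 and 5877664-5877913. Its CCAAT and GC box matches were in the former and its TATA match in the latter. No 2 matches overlapped. Such matches describe letters and do not show binding.

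Poldip2 RNA was at lower levels in all 4 flushed knockout libraries than in any flushed control, a difference that edgeR did not call over all genes. In the left-over fraction, against the labels, it was higher in the libraries labelled knockout, and that difference was called. The gene, ENSMUSG00000001100, occupies chromosome 11 (GRCm38) between 78512193 and 78522736, + strand. In the flushed controls 1 to 4 it was at 46.3, 43.7, 48.3 and 59.8 CPM, and in the flushed knockouts 1 to 4 at 36.5, 24.7, 25.6 and 21.5 CPM. All 4 knockouts lay below all 4 controls, with knockout 1 nearest to them, and the knockout mean of 27.1 ± 6.53 CPM was 54.7% of the control mean of 49.5 ± 7.11 CPM (SD, n = 4 each). Because the flushed RNA is a bulk sample, fewer endothelial cells with intact Poldip2 and less Poldip2 RNA per cell cannot be told apart. The log2 fold change was -0.89 (SE 0.16), with an adjusted p of 0.270 in edgeR's quasi-likelihood test with Benjamini-Hochberg adjustment over 14800 genes. That test called 0 of 8 tested members and 0% of all genes (917 had an unadjusted p under 0.05), whereas DESeq2 called 68 genes, Poldip2 among them (-0.89, adjusted p 0.000215). Without knockout 1 edgeR called Poldip2 as well (-1.05, adjusted p 0.0377). Fibroblast markers summed to 1989 to 4077 CPM in flushed controls and 804 to 3322 CPM in flushed knockouts. Only knockout 1, at 3322 CPM, lay within the control range, and knockouts 2, 3 and 4 were below it at 893, 804 and 971 CPM. Smooth muscle markers summed to 352 to 487 CPM in flushed controls and 442 to 709 CPM in flushed knockouts. With the fibroblast or the smooth muscle score as a covariate the Poldip2 value was -0.66 (adjusted p 0.0744) or -1.55 (adjusted p 0.0539).

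In the left-over fraction Poldip2 was at 27.4 and 23.5 CPM in the libraries labelled control and at 54.9, 51.6, 68.8 and 70.7 CPM in those labelled knockout. The groups did not overlap, and the labelled knockout mean of 61.5 ± 9.62 CPM (SD, n = 4) was 2.42 times the labelled control mean of 25.4 ± 2.79 CPM (SD, n = 2). The log2 difference was 1.29 (SE 0.20, edgeR adjusted p 0.00886). It was the sole call among the 9 members, in a comparison that called 0.792% of 20442 genes and 0.421% of them as higher. Without labelled control 2 it was 1.17 with an adjusted p of 0.110, the remaining control being assumed to vary like the other group. In the authors' deposited table the log2 fold change of PD2KO_SM against Ctrl_SM was -1.25, and that of PD2KO_EC against Ctrl_EC was -0.70. The difference between the labelled knockout effects of the fractions, left-over minus flushed, was 2.15 on the log2 scale (SE 0.26, edgeR adjusted p 0.00175), the one member among the 0.256% of 21464 genes called for that contrast.

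Other RNAs also separated the left-over groups. Dbp, a circadian transcription factor gene, was at 38.8 and 119 CPM in the libraries labelled control and 1.44 to 2.83 CPM in those labelled knockout. Hspa8, which encodes the constitutive HSC70 chaperone, was at 555 and 687 CPM against 2107 to 3648 CPM. Both were picked from earlier results, and their part in the differences of the members was not tested. The direction of Poldip2 between the fractions depended on which left-over libraries were used. Against the labelled controls, flushed controls were higher by 0.89 on the log2 scale (SE 0.14, edgeR adjusted p 0.000521). Against the 3 labelled knockouts with shared numbers they were lower, by -0.42 (SE 0.13, adjusted p 0.0199), with log2 CPM differences of -0.61, -0.33 and -0.10 for flushed controls 1, 2 and 3. Without the pair of flushed control 1 that value was -0.24 (adjusted p 0.138), and without that of control 2 it was -0.42 (adjusted p 0.0722).

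**Figure D1:**
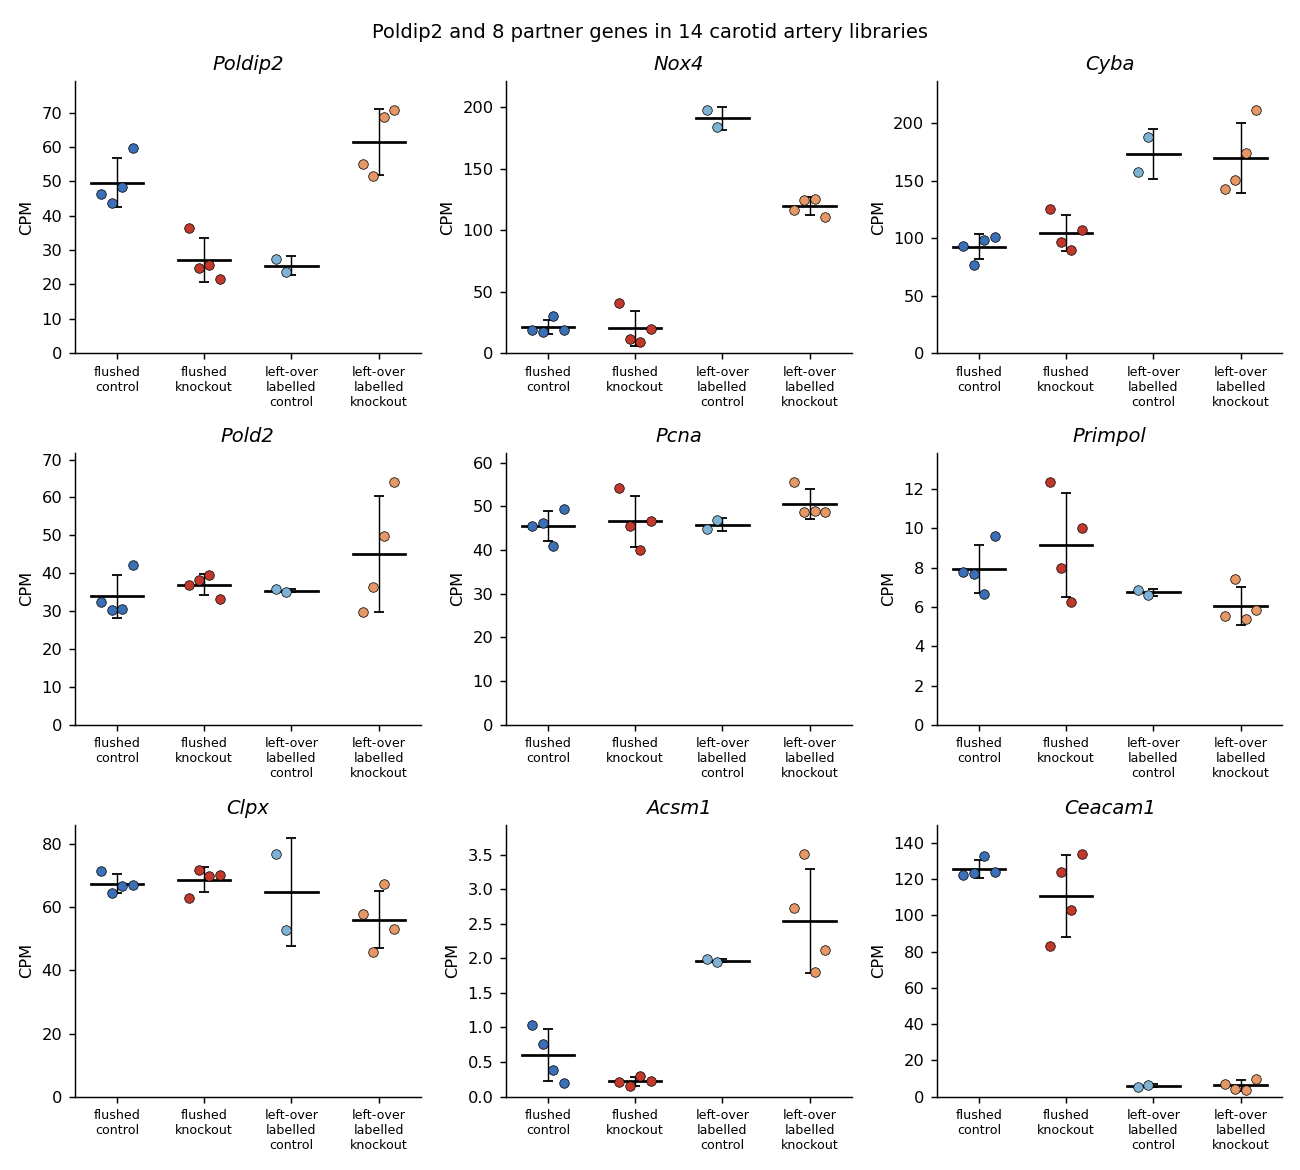
CPM of Poldip2 and its 8 partner genes in each of the 14 libraries by group (points), with the group mean (line) and SD (bar); each panel has its own axis from 0. Poldip2 separates within both fractions, Nox4 and Ceacam1 separate mainly the fractions, and, with TMM scaling, Pcna stays between 39.9 and 55.6 CPM throughout.

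None of the genes beside Poldip2 was called in either knockout comparison. Of 10 genes within 50 kb in the table, 7 were tested in the flushed knockout comparison and 8 in the left-over one. Tmem199, a vacuolar ATPase assembly factor whose start lies 20 bases from that of Poldip2 in the table, was at 14.5 to 19.9 CPM in flushed controls and 17.3 to 23.3 CPM in flushed knockouts (log2 fold change 0.17, SE 0.13, adjusted p 0.849). In the left-over fraction it was at 14.9 to 15.4 and 12.1 to 15.8 CPM (-0.08, SE 0.20). Tnfaip1, an adaptor for cullin ubiquitin ligases that ends 113 bases past Poldip2, was at 86.6 to 108 CPM in left-over libraries labelled control and 111 to 152 CPM in those labelled knockout. Those groups did not overlap, but the log2 difference of 0.43 (SE 0.18) had an adjusted p of 0.404. Ift20, an intraflagellar transport gene, also had groups without overlap there (0.18, SE 0.15, adjusted p 0.762). Between flushed and left-over labelled controls, where edgeR called 65.7% of all genes, it called 5 of these neighbours. Tnfaip1 was higher in the flushed fraction by 2.49 (SE 0.13) and Nlk by 0.95 (SE 0.18), and Slc46a1 (-2.28, SE 0.29), Sarm1 (-1.64, SE 0.42) and Tmem97 (-1.58, SE 0.16) were lower. Sarm1 lost its call without labelled control 1 (adjusted p 0.0640).

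**Figure D2:**
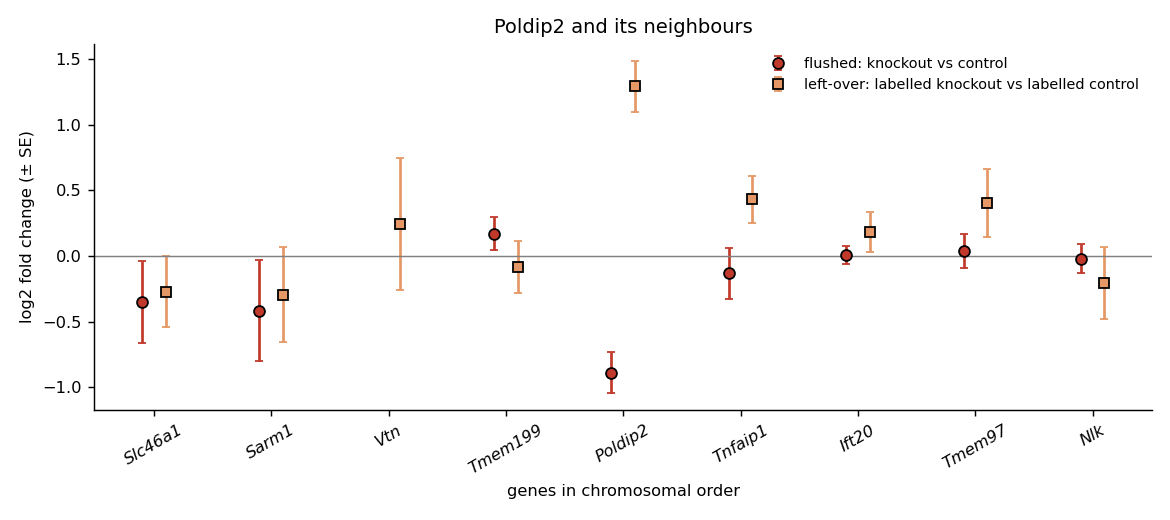
Log2 fold change (± SE) of Poldip2 and the tested genes within 50 kb, in chromosomal order, for knockout against control in the flushed fraction and labelled knockout against labelled control in the left-over fraction. Poldip2 stands at -0.89 and 1.29, and no neighbour was called.

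Nox4, the catalytic oxidase subunit, was mainly a left-over RNA. It was at 18.7, 17.0, 29.8 and 18.9 CPM in flushed controls 1 to 4 and at 198 and 184 CPM in the left-over libraries labelled control. The flushed level was the lower (log2 difference -3.25, SE 0.20, edgeR adjusted p 5.8e-06), in a comparison that called 65.7% of 18484 genes. Within shared numbers the difference was -2.53 (SE 0.15, adjusted p 1.6e-06).

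Within the flushed fraction Nox4 did not separate the genotypes. Knockouts 1 to 4 were at 40.5, 11.2, 9.03 and 19.3 CPM, a range that contains all 4 controls (log2 fold change -0.10, SE 0.46, adjusted p 0.988). Knockout 1 and control 3 had the highest Nox4 of their groups and also the highest summed level of 10 adventitial fibroblast markers, at 3322 and 4077 CPM; the other flushed libraries were at 804 to 2494 CPM. Knockout 1 and control 3 also had the highest summed macrophage markers and the highest summed adipocyte markers of their groups. Smooth muscle markers summed to 683 CPM in knockout 1 and 352 CPM in control 3. Which of these cell types, if any, was the source of Nox4 in the flushed libraries was not tested. With the fibroblast marker score as a covariate the Nox4 value was 0.66 (adjusted p 0.163), and with the smooth muscle score it was -1.10 (adjusted p 0.875). Without knockout 1 it was -0.68 (adjusted p 0.574).

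In the left-over fraction Nox4 missed the threshold by a narrow margin. It was at 117, 125, 126 and 110 CPM in libraries labelled knockout 1 to 4, all below both libraries labelled control, with means of 119 ± 7.25 (SD, n = 4) and 191 ± 9.52 CPM (SD, n = 2). The log2 difference of -0.67 (SE 0.15) had an edgeR adjusted p of 0.0506. It was called without labelled knockout 4 (-0.64, adjusted p 0.0404), whereas without labelled control 1 the adjusted p was 0.501 (-0.61), the highest with a library left out. Fibroblast markers summed to 28242 to 39089 CPM in labelled controls and 27321 to 30140 CPM in labelled knockouts, and smooth muscle markers to 8144 to 8628 and 7234 to 9277 CPM, all overlapping. Adipocyte markers (median log2 difference -1.05, 1 of 6 positive) and endothelial markers (-0.65, 1 of 12 positive) also lay mostly lower in labelled knockouts, with none called. The part of these markers was not tested. The authors' deposited table gave 0.65 for PD2KO_SM against Ctrl_SM (adjusted p 0.000117). The test of the difference between the fractions' knockout effects gave -0.60 (SE 0.61, adjusted p 0.724).

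**Figure D3:**
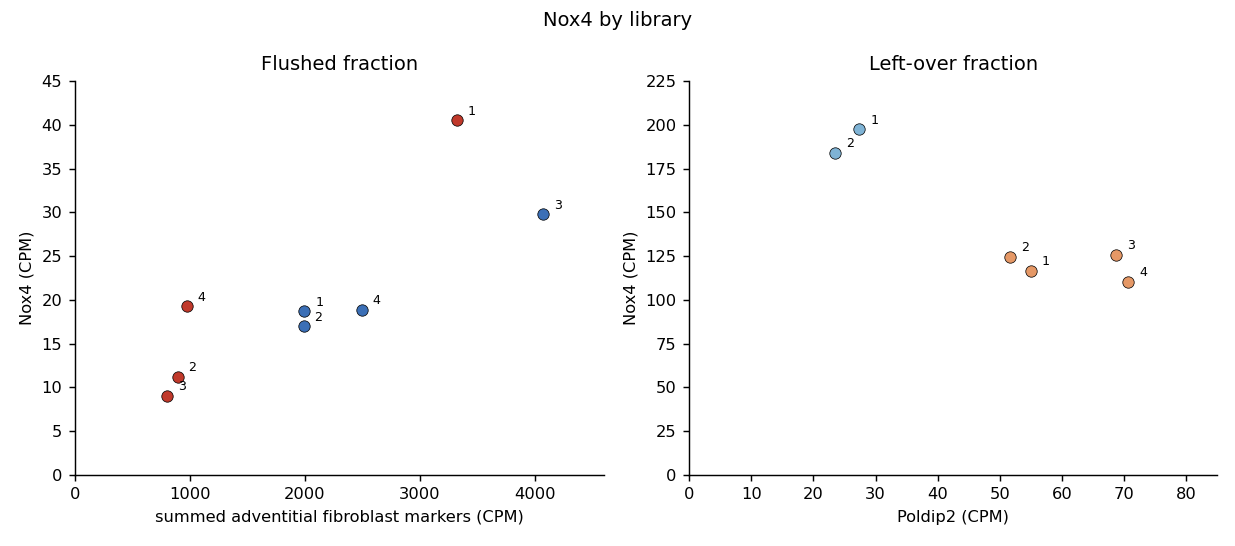
Nox4 CPM per library against the summed CPM of 10 adventitial fibroblast markers in the flushed fraction (left; blue controls, red knockouts) and against Poldip2 CPM in the left-over fraction (right; light blue labelled control, orange labelled knockout); numbers are replicates. Flushed knockout 1 and control 3 are highest at 40.5 and 29.8 CPM, and the libraries labelled control stand apart at 184 and 198 CPM.

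Cyba, which encodes p22phox, the partner that stabilises NOX4 and other oxidases in the membrane, had the highest FPKM of the 9 members in every group. It was at 93.5, 76.7, 98.5 and 101 CPM in flushed controls and 126, 96.2, 89.8 and 107 CPM in flushed knockouts, and these ranges overlapped (log2 fold change 0.16, SE 0.11, adjusted p 0.847). In left-over libraries it was at 158 and 188 CPM for labelled control and 143, 151, 174 and 211 CPM for labelled knockout (-0.01, SE 0.19, adjusted p 0.993). Flushed controls were lower than labelled controls by -0.98 (SE 0.13, adjusted p 0.000147) and lower by -0.97 with the shared numbers (adjusted p 0.000235).

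Other NADPH oxidase genes were lower in the flushed fraction as well. Of 14 listed genes 12 were tested between flushed controls and left-over labelled controls, 8 were lower and 1 higher (31.1% and 34.6% of all genes tested were), and the list's median was -2.76 beside -0.05 over all genes tested. The largest differences were in phagocyte oxidase genes: the cytosolic subunits Ncf1 (-3.95) and Ncf4 (-3.75), the GTPase Rac2 (-3.25), and the catalytic subunit Cybb (-3.13). The summed level of 8 macrophage markers was 34.7 to 893 CPM in the flushed and 3972 to 5455 CPM in the left-over libraries, and its part was not tested. By shared number, 10 were lower and 1 higher of 12, beside 31.7% and 33.8% of all genes tested. None of the 7 tested in the flushed knockout comparison and none of the 13 tested in the left-over one was called; Noxo1, an organiser subunit, had the smallest p in the flushed fraction (-0.28, adjusted p 0.866).

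Pold2, the regulatory p50 subunit of DNA polymerase delta, was called in neither knockout comparison. It was at 32.4, 30.3, 30.6 and 42.1 CPM in flushed controls and 36.9, 38.2, 39.7 and 33.1 CPM in flushed knockouts (log2 fold change 0.11, SE 0.11, adjusted p 0.893). The left-over libraries labelled control were at 35.8 and 35.1 CPM, and those labelled knockout spread from 29.7 through 36.4 and 49.9 to 64.1 CPM (0.37, SE 0.28, adjusted p 0.741). Both comparisons overlapped. Flushed controls were lower by -0.47 (SE 0.19, adjusted p 0.0489) with the shared numbers, where edgeR called 65.6% of 18455 genes, but the value was -0.14 (adjusted p 0.400) without the pair of flushed control 1 and -0.14 (adjusted p 0.413) against the labelled controls. Without the number as a block it was -0.55 (adjusted p 0.0759). Against labelled controls Pold2 was called lower in 2 of 13 alternative settings, with values down to -0.60.

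Pcna, the ring-shaped clamp that tethers polymerases to DNA, was called in no comparison with the main settings. It was at 45.5, 46.3, 40.9 and 49.4 CPM in flushed controls, 54.3, 45.5, 39.9 and 46.7 CPM in flushed knockouts, and 44.9 and 46.8 CPM in left-over libraries labelled control. The libraries labelled knockout were at 55.6, 48.7, 48.9 and 48.8 CPM, above both labelled controls. The log2 differences were 0.02 (SE 0.10) in the flushed and 0.15 (SE 0.15) in the left-over knockout comparison. Between the fractions they were -0.08 (SE 0.10) in labelled controls and -0.28 (SE 0.12, adjusted p 0.0661) with the shared numbers. Alternative settings called Pcna lower in the flushed fraction in 3 of 13 cases against labelled controls and 2 of 9 with shared numbers. The values reached -0.54 and -0.79.

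Primpol, which reprimes DNA synthesis past lesions, was low. It was at 7.78, 7.68, 6.67 and 9.59 CPM in flushed controls and 12.4, 7.99, 6.24 and 9.99 CPM in flushed knockouts (log2 fold change 0.19, SE 0.21, adjusted p 0.909). In the left-over fraction it was at 6.88 and 6.60 CPM in libraries labelled control and 5.52, 7.44, 5.40 and 5.84 CPM in those labelled knockout (-0.15, SE 0.24). Groups overlapped in both, and neither fraction comparison called it (0.17 and 0.18). Its 3' end overlaps Cenpu on the opposite strand, whose counts reached 0.438 of those of Primpol in a library; since the strand setting of the counting is not given, reads of the 2 genes may not be separable there.

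Genes that work with polymerase delta and the clamp went both ways between the fractions. Of 17 listed genes 16 were tested: 4 were higher and 2 lower in flushed controls than in left-over labelled controls, with a median of 0.19. Over all genes tested 65.7% were called, 34.6% higher and 31.1% lower. Pold1, the catalytic subunit, was higher by 1.23, Pold3, an accessory subunit, by 0.95, and the primase subunit Prim1 by 0.70, while Pole2 of polymerase epsilon was lower (-0.85). Of 10 translesion synthesis genes 7 were higher and 2 lower, beside those same shares, with a median of 0.59; Rev1 (1.40) and Polk (0.89) were among the higher, and Poln (-1.64) and the ubiquitin ligase gene Rad18 (-1.22) were the lower. Poln lost its call without flushed control 1 or either labelled control (adjusted p 0.0581 to 0.131). Within shared numbers the counts were 7 higher and 3 lower of 16, and 5 higher and 3 lower of 10. Over all genes tested 33.8% were higher and 31.7% lower there. The summed level of 8 proliferation markers was 113 to 237 CPM in flushed and 66.2 to 82.0 CPM in left-over libraries. The markers did not move as one: 3 of 8 were called higher and 0 lower against labelled controls (median 0.88), and 2 higher and 2 lower within shared numbers (median -0.65). Their part was not tested. Neither knockout comparison called a gene of either list. The smallest p belonged to Pold1 (0.33, adjusted p 0.701) and Rev3l (-0.31, adjusted p 0.788) in the flushed fraction and to Rfc5 (-0.54, adjusted p 0.366) and Polk (-0.58, adjusted p 0.286) in the left-over fraction.

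Clpx, the unfoldase that feeds proteins to the mitochondrial ClpP protease, was also called in no comparison with the main settings. It was at 71.5, 64.4, 66.8 and 67.0 CPM in flushed controls and 62.9, 71.8, 69.9 and 70.2 CPM in flushed knockouts (log2 fold change 0.01, SE 0.07, adjusted p 0.992). Left-over libraries labelled control were at 76.9 and 52.8 CPM and those labelled knockout at 57.7, 46.0, 67.4 and 53.2 CPM (-0.20, SE 0.19, adjusted p 0.813). The labelled control pair enclosed all but 1 of the labelled knockouts. Between the fractions the difference was -0.01 (SE 0.14) in labelled controls and 0.31 (SE 0.12, adjusted p 0.0526) with the shared numbers. Without the number as a block the latter was 0.30 and called (adjusted p 0.0434). In labelled controls 2 of 13 alternative settings called Clpx lower in the flushed fraction, with values down to -0.47, and 5 gave the opposite sign.

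Acsm1, a mitochondrial medium-chain acyl-CoA synthetase, was near the detection limit in the flushed fraction, with 3 to 18 counts per library. Flushed controls were at 1.04, 0.768, 0.389 and 0.203 CPM and flushed knockouts at 0.209, 0.153, 0.304 and 0.222 CPM, and the gene did not pass the filter on low counts for that comparison. Left-over libraries labelled control were at 1.98 and 1.95 CPM and those labelled knockout at 2.73, 3.51, 1.80 and 2.12 CPM, overlapping (log2 difference 0.37, SE 0.38, adjusted p 0.817). Flushed controls were lower than labelled controls by -1.78 (SE 0.56, adjusted p 0.0205) and lower by -2.00 (SE 0.56, adjusted p 0.0124) with the shared numbers. The former lost its call without either labelled control (adjusted p 0.0817 and 0.0886).

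The other 4 ACSM genes, 4 of 4 tested, gave 3 lower and 0 higher in flushed controls against labelled controls, where 31.1% of all genes were lower (median -2.92): Acsm3 (-4.23), Acsm5 (-3.76) and Acsm4 (-2.07, which lost its call without flushed control 1 or either labelled control). All 4 were lower within shared numbers, where 31.7% of all genes were. Acsm2 lost its call there without the pair of flushed control 1 (adjusted p 0.0644) or of control 2 (adjusted p 0.0511). The sequences of ACSM genes are similar, so reads may be split between them. Of 16 genes of the Clp protease and protein lipoylation, 1 was higher and 5 were lower (median -0.23), beside 34.6% and 31.1% of all genes: Lonp1, the other major matrix protease, was higher by 0.60, and Gcsh, the lipoylated H protein of glycine cleavage (-1.48), Pdha1 of pyruvate dehydrogenase (-0.59) and the protease subunit Clpp (-0.58) were lower. Pdha1 lost its call without labelled control 1 (-0.29, adjusted p 0.0554). With the shared numbers 3 were higher and 4 lower, beside 33.8% and 31.7% of all genes, and the list's median was 0.11. Neither knockout comparison called a gene of the Clp and lipoylation list. The nearest were Lias, the lipoyl synthase (0.18, adjusted p 0.790), in the flushed fraction and Dbt of the branched-chain complex (-0.55, adjusted p 0.301) in the left-over fraction. Of the 4 ACSM genes 0 passed the filter on low counts in the flushed knockout comparison, so none was tested there. The left-over comparison tested 4 and called none.

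Ceacam1, a cell adhesion molecule of endothelium and epithelium whose cytoplasmic tail recruits SHP phosphatases, had the largest excess in the flushed fraction of the 9 members. It was at 122, 123, 133 and 124 CPM in flushed controls and at 5.49 and 6.60 CPM in left-over libraries labelled control, a ratio of 20.8 (log2 difference 4.30, SE 0.13, edgeR adjusted p 1.2e-07). By shared number the difference was 4.14 (SE 0.26, adjusted p 1.3e-05). Flushed knockouts were at 83.0, 124, 103 and 134 CPM, overlapping the controls and more spread than them (-0.19, SE 0.14, adjusted p 0.847). Libraries labelled knockout were at 7.22, 4.09, 3.70 and 9.91 CPM (0.07, SE 0.37, adjusted p 0.972). Epithelial markers summed to 35.4 to 68.6 CPM in the flushed and 5.91 to 12.8 CPM in the left-over libraries, with at most 1 of the 4 markers at 0 in a library. That sum does not stand for the list: of the 3 tested against labelled controls 1 was higher in the flushed fraction and the median was -1.02, and within shared numbers 1 was higher and 2 lower of 4 (median -1.72).

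No other gene of the family or of its phosphatases was called higher in the flushed fraction. Of 8 listed genes 5 were tested between flushed and left-over labelled controls, and 3 were lower and 0 higher, beside 31.1% and 34.6% of all genes (median -1.32): Ptpn6, the haematopoietic phosphatase SHP-1 (-3.27), Ceacam18 (-2.82) and Ptpn11, the ubiquitous SHP-2 (-0.32). Ceacam18 (adjusted p 0.102) and Ptpn11 (adjusted p 0.145) lost their calls without labelled control 2. Ceacam1 and Ceacam2 are near-identical in part, so the split of reads between them is uncertain. Ceacam2 was at 0.101 to 0.907 CPM in flushed libraries. It was nearer to Ceacam1 in the left-over fraction. There Ceacam2 was at 1.15 to 1.35 CPM in labelled controls (Ceacam1 5.49 to 6.60) and 1.24 to 3.20 CPM in labelled knockouts (Ceacam1 3.70 to 9.91). Of 5 other reported partners, Ssbp1, Tfam, U2af2, Zranb2 and Ect2, only U2af2, a splicing factor, was called, higher in flushed controls by 0.54. That was against labelled controls, where 65.7% of all genes were called. With the shared numbers, where 65.6% of all genes were called, the sole call of the 5 was Zranb2 (0.35). Zranb2 moved to -0.03 with library size scaling and -0.16 with upper quartile factors. Of the 8 genes of the CEACAM list only 3 were tested in the flushed knockout comparison and 6 in the left-over one, and none was called. Neither knockout comparison called any of the 5 other partners.

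**Figure D4:**
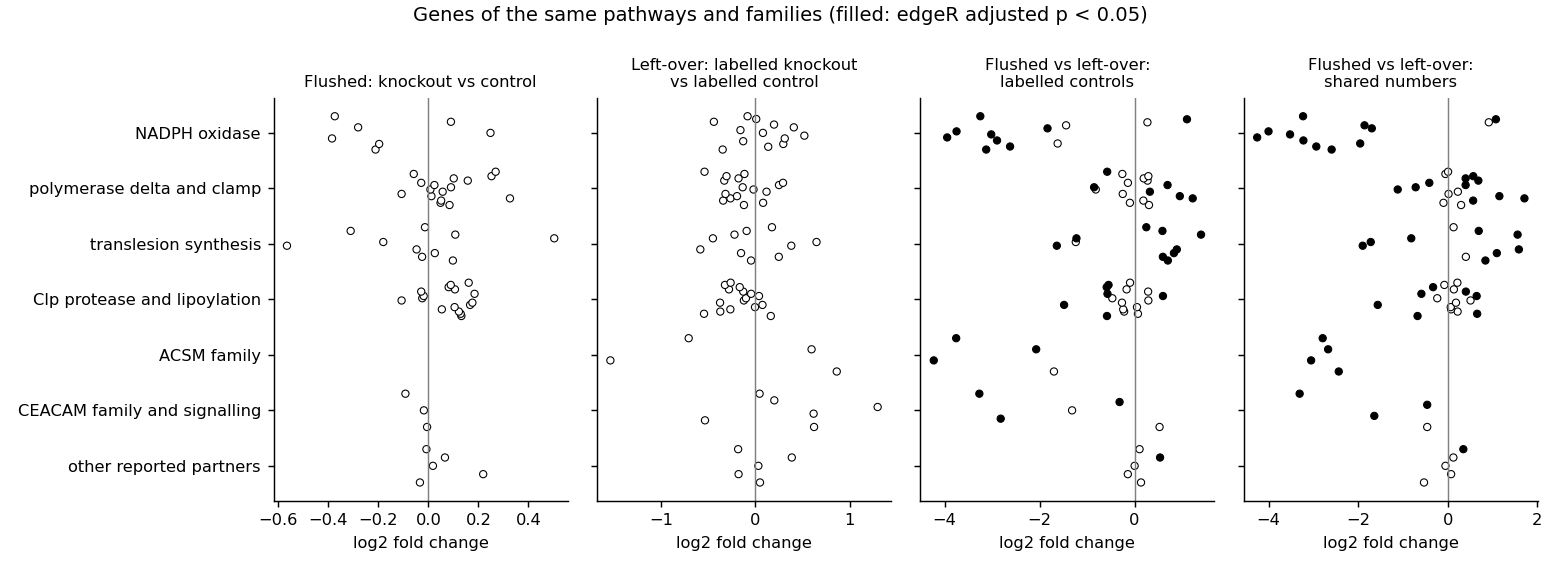
Log2 fold changes of the listed pathway and family genes in 4 comparisons (columns; horizontal scales differ), each point 1 tested gene, filled where the edgeR adjusted p was under 0.05. No point is filled in either knockout comparison, and oxidase and ACSM genes lie mostly below 0 in both fraction comparisons.

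Counted over the members, the fraction comparison in labelled controls called 5 of 9 members beside 65.7% of all genes. Of these 2 were higher in the flushed fraction, where 34.6% of all genes were, and 3 lower, where 31.1% were. The comparison with shared numbers called 6 of 9 beside 65.6%, with 1 higher (33.8% of all genes) and 5 lower (31.7%). The totals are near the background. Split by direction, the counts with shared numbers lie further from it, but with only 9 members they show nothing particular to the members. Called genes were higher in the flushed fraction in 52.6% of cases with TMM scaling, against 38.0% with library size and 32.5% with upper quartile scaling. The fold changes of Nox4, Cyba, Acsm1 and Ceacam1 kept their direction under each scaling tried.

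**Figure D5:**
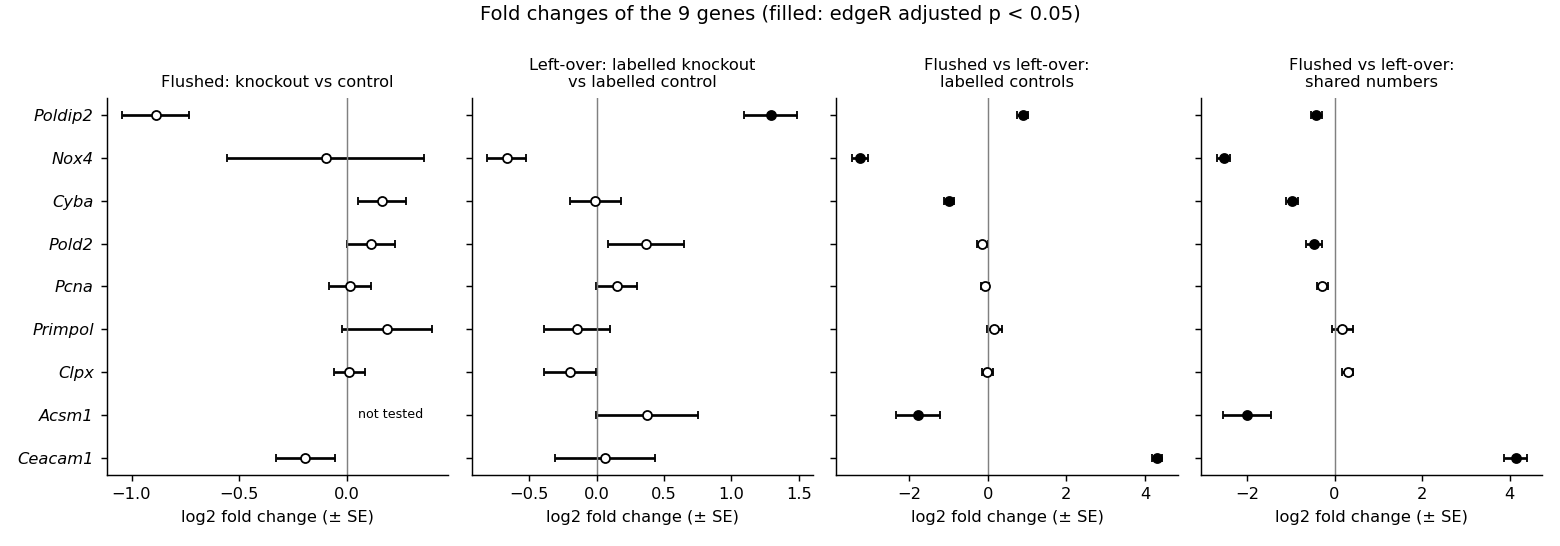
Log2 fold changes (± SE) of the members in the knockout and fraction comparisons, filled where the edgeR adjusted p was under 0.05. Poldip2 is at -0.89 and 1.29 in the knockout comparisons, and Ceacam1 (4.30) and Nox4 (-3.25) are the extremes of the fraction comparison in labelled controls.

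Compared per length, the order of the members by FPKM differed between the fractions. In flushed controls Cyba led at 107 ± 8.97 FPKM, followed by Ceacam1 (29.5 ± 1.02), Pcna (26.4 ± 2.45), Poldip2 (21.1 ± 2.37), Clpx (20.5 ± 1.25) and Pold2 (18.03 ± 2.56), then Nox4 (4.70 ± 1.16), Primpol (1.77 ± 0.258) and Acsm1 (0.257 ± 0.167; SD, n = 4). The library ranges of Poldip2, Clpx and Pold2 overlapped each other, as did those of Pcna and Poldip2 and, at their edges, those of Ceacam1 and Pcna, while Nox4, Primpol and Acsm1 were separate from each other and from the rest. In flushed knockouts Poldip2 ranked 6 rather than 4, at 11.6 ± 3.00 FPKM (SD, n = 4). In left-over libraries labelled control Nox4 was second at 56.4 ± 0.833 FPKM and Poldip2 was sixth at 14.3 ± 0.648 FPKM (SD, n = 2), whereas in those labelled knockout Nox4 (36.7 ± 3.43) and Poldip2 (35.9 ± 4.22 FPKM; SD, n = 4) overlapped.

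The genes whose levels most resembled Poldip2 were not members. After each fraction's mean was subtracted from log2 CPM, Pearson's r over the 14 libraries, among 13470 genes, was highest for Spon2 (0.903), Nuak2 (0.868), Armcx2 (0.865), Ankrd10 (0.864) and Nkiras1 (0.862). Among the lowest values were those of Tlk1 (-0.853), Bri3 (-0.846), Ccdc14 (-0.837) and Cwf19l2 (-0.825). Among the partners it ran from -0.23 for Clpx to 0.331 for Acsm1. For Nox4 the fractions differed: r was 0.447 over the 8 flushed libraries and -0.946 over the 6 left-over libraries, and the latter fall into 2 separate clusters, the labelled groups. These libraries share groups in which Poldip2 itself differs, and the values are a description.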

How the data were processed

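Read counts per gene were deposited for 14 libraries by the authors, with FPKM values that the authors scaled to gene length and column total. They also deposited group mean FPKM, log2 fold changes, p-values and adjusted p-values. Per the submitters' processing notes, STAR 2.5, TopHat, HTSeq 0.6.1, edgeR 3.16.5, DESeq2 and STAR-Fusion were used, with no role stated. The notes give mm9 as the build, whereas gene positions in the table match GRCm38: 97.6% of starts whose identifier is in GENCODE M21 lay within 5000 bases of the annotated start. The strand setting of the counting was not stated.

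Counts were filtered with filterByExpr (minimum count 10, minimum total 15), scaled by TMM and tested two-sided with the quasi-likelihood F test of edgeR 4.0.16 (robust; limma 3.58.1, statmod 1.5.0, R 4.3.3). P-values were adjusted over all genes of a comparison by the Benjamini-Hochberg method, and 0.05 was the threshold for a call; each adjusted p without another name comes from this test. DESeq2 1.42.0 was an alternative. The 5 comparisons were knockout against control in each fraction on its own libraries, flushed against left-over labelled controls, flushed controls against left-over labelled knockouts with shared description numbers as a block, and the difference of the knockout effects over all 14 libraries. CPM in the text used TMM factors over all 14 libraries; log2 CPM used a prior count of 2. The steps were tested on simulated data. Depth limits low genes: 3 counts, the most that a zero allows at 95% confidence, are 0.133 to 0.194 CPM, for counting error only.

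All members were named. From each list up to 4 called genes with the largest change were named, or up to 2 with the smallest p where none was called; genes within 50 kb of Poldip2 and the 5 genes most and least like it were also named, without unnamed gene models. Members, lists and tests were chosen with earlier results of these data known. Repeat numbers gave no consistent correlation between flushed controls and flushed knockouts, which cannot decide whether they were paired. Some genes that these rules name are not reported here.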

Additional observations from a re-analysis of the deposited data

Results flagged for a closer look

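Nox4 in flushed control 3 stood apart from its group, at 29.8 CPM beside 17.0 to 18.9 CPM in the other 3 controls. Pcna in left-over labelled knockout 1 stood apart at 55.6 CPM beside 48.7 to 48.9 CPM. Of 27 groups of 4 libraries examined, 2 were marked in this way, and chance marks about 1 in 20 such groups. The labelled knockout effect on Poldip2 differed between the fractions by 2.15 on the log2 scale, left-over minus flushed (SE 0.26, edgeR adjusted p 0.00175). All 4 flushed knockouts were below the controls, and all 4 left-over libraries labelled knockout were above the labelled controls. This contrast takes the left-over labels as given, and the authors' deposited columns go against them. Their Poldip2 values were -1.25 for PD2KO_SM against Ctrl_SM and -0.70 for PD2KO_EC against Ctrl_EC.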

How the results depend on the processing

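Counts of called genes depended on the tool and filter: in the flushed knockout comparison 0 became 68 with DESeq2 (1 member, Poldip2 at -0.89), 14 without the filter on low counts and 153 with the fibroblast score as covariate; leaving out libraries gave 0 to 97 genes, 0 to 1 members and -1.07 to -0.80 for Poldip2, the 97 and -1.07 coming from an alternative chosen after seeing the data, without control 3 and knockout 1. In the left-over comparison 162 became 436 with DESeq2, 397 without the filter and 2015 with the replicate block. With these 3, and with library size and upper quartile scaling, 2 members were called, Poldip2 and Nox4. The number of all genes called with those scalings is not given here. Leaving out a library gave 41 (without labelled control 2) to 260 (without labelled knockout 4) genes, 0 to 2 members and 1.17 to 1.41 for Poldip2. For the difference of effects 55 became 438 with DESeq2, 19 with the replicate block, and 7 to 131 with a library left out; Poldip2 ranged from 2.03 to 2.34. The cause was not tested. Libraries of equal repeat number had r of deviations of -0.193, 0.157, -0.187 and 0.052 between flushed controls and flushed knockouts. Between flushed controls and left-over labelled knockouts r was -0.0003, 0.421, 0.118 and 0.198. The shared description numbers used as a block between the fractions gave r of -0.008, 0.196 and -0.186. With so few libraries these values cannot decide whether any were paired. Without the block of shared numbers Poldip2 was -0.43 between the fractions.

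Between the fractions in labelled controls, library size and upper quartile scaling moved the median of all genes from -0.05 to -0.38 and -0.51. With either scaling 8 members were called, all but Primpol. The share of all genes called with these scalings is not given here (65.7% with TMM), so the 8 show nothing particular to the members. With shared numbers the median moved from -0.08 to -0.46 and -0.59, and the share of higher calls from 51.6% to 35.9% and 30.3%. Poldip2 reversed to -0.40 (adjusted p 0.0132) with labelled knockouts in place of labelled controls; with shared numbers it was -0.29 (adjusted p 0.219) without the filter and -0.56 to -0.24 with a number left out.

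Other reversals follow; Hspa8 (2.02 in labelled controls) and Zranb2 (0.35 within shared numbers) had been called. In the flushed knockout comparison the fibroblast covariate gave Nox4 0.66 and Clpx -0.091, and the smooth muscle covariate gave Cyba -0.10, Pold2 -0.12, Pcna -0.21, Primpol -0.23 and Ceacam1 0.23. Left-over Cyba was 0.014 with library size and 0.028 with upper quartile scaling, and the block gave Pold2 -0.13 and Ceacam1 -0.15. Between fractions, Primpol was -0.17 and -0.29 with those scalings (-0.20 and -0.34 with shared numbers), Clpx 0.059 without the filter, 0.026 with the block, 0.17 with labelled knockouts, and -0.075 and -0.21 with shared numbers, Hspa8 -0.19 with labelled knockouts, and Zranb2 -0.029 and -0.16. Pold2's difference of effects was -0.0011 with the block. With a library left out, Ceacam1 ran from -0.27 to 0.24 and Clpx from -0.45 to 0.11 in the left-over comparison, Cyba from -0.15 to 0.11; in the flushed comparison Nox4 ran from -0.68 to 0.14, Clpx from -0.0097 to 0.062, Pcna from -0.11 to 0.075 and Primpol from -0.063 to 0.32; Clpx between fractions ran from -0.22 to 0.30; differences of effects ran from -0.092 to 0.41 for Ceacam1, -0.49 to 0.055 for Clpx and -0.85 to 0.020 for Nox4.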
